A study of Mus musculus with 6 samples.

Results

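The Fc gamma receptors of the mouse and the adaptors that carry their signal were followed in inguinal fat, a white adipose depot abbreviated iWAT, comparing Zip13-KO mice with WT mice of the same litters. The group holds 6 genes: the activating receptors Fcgr1, Fcgr3 and Fcgr4, the inhibitory receptor Fcgr2b, and the adaptors Fcer1g and Tyrobp. Every array feature made against a RefSeq transcript of one of these genes was taken, which gave 1 feature a gene, and all 6 genes passed the filter on dim features among 15306 genes tested. RNA came from whole tissue of 10-week-old mice on the C57BL/6J background, 3 WT and 3 Zip13-KO samples, each on an Agilent 1-colour array, where a brighter spot means more of its transcript. The Zip13-KO mice lack exons 6 to 8 of Slc39a13 (Zip13), which encodes a zinc transporter, in every tissue, with a neo cassette in their place. Both genotypes had been backcrossed for at least 7 generations and ate powdered food, since the Zip13-KO mice have few teeth, and the labels do not say which of the study's 2 diets the array mice received. Nothing in the labels says whether an array holds 1 mouse or several, so the p values measure the spread between these arrays.

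Fc gamma receptors bind the constant part of IgG and let macrophages, neutrophils, NK cells and B cells respond to antibody-coated particles. Fcgr1 binds single IgG molecules with high affinity, while Fcgr3 and Fcgr4 bind mostly immune complexes. These activating receptors need the Fc receptor gamma chain, encoded by Fcer1g, whose cytoplasmic ITAM motif is phosphorylated by Src family kinases and then recruits Syk. Fcgr2b carries an inhibitory ITIM motif, which recruits the lipid phosphatase SHIP-1, and is the Fc gamma receptor of B cells as well as being present on myeloid cells. Tyrobp (DAP12) is a second ITAM adaptor, which pairs with TREM2 and other receptors of myeloid and NK cells. In adipose tissue most of these genes are known from resident and recruited macrophages.

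Slc39a13 itself averaged 10.96 on the WT and 6.63 on the Zip13-KO arrays (SD 0.30 and 0.15, n = 3 each) on the normalized log2 intensity scale, in the direction of the labels, and Ucp1, the uncoupling protein of brown and beige fat, was higher in Zip13-KO by 5.16. Between 58.8% and 63.2% of the spots of an array were well above background, with no saturated spot, and arrays correlated at 0.9856 to 0.9954 within and 0.9601 to 0.9838 between genotypes across genes, which are not independent replicates. By slide position, column 1 held all 3 WT arrays and Zip13-KO replicate 1, and column 2 held the other Zip13-KO arrays.

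Relative to WT iWAT, all 6 genes were lower in Zip13-KO, by 2.49-fold to 7.26-fold, with every Zip13-KO array below every WT array. All 6 passed the threshold of an adjusted p under 0.05 from limma and a change of more than 1.5-fold, as did 8.28% of all genes tested in the same direction, and none was higher, as were 10.2% of all genes. In 25.9% of all genes the Zip13-KO arrays lay below all WT arrays. For each gene the two-sided exact permutation test gave 0.1, the smallest p that 3 arrays against 3 can reach. The plot of the intensities by array shows that the fall was deeper in Fcgr1 and Fcgr4 than in the other 4 genes.

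**Figure D1:**
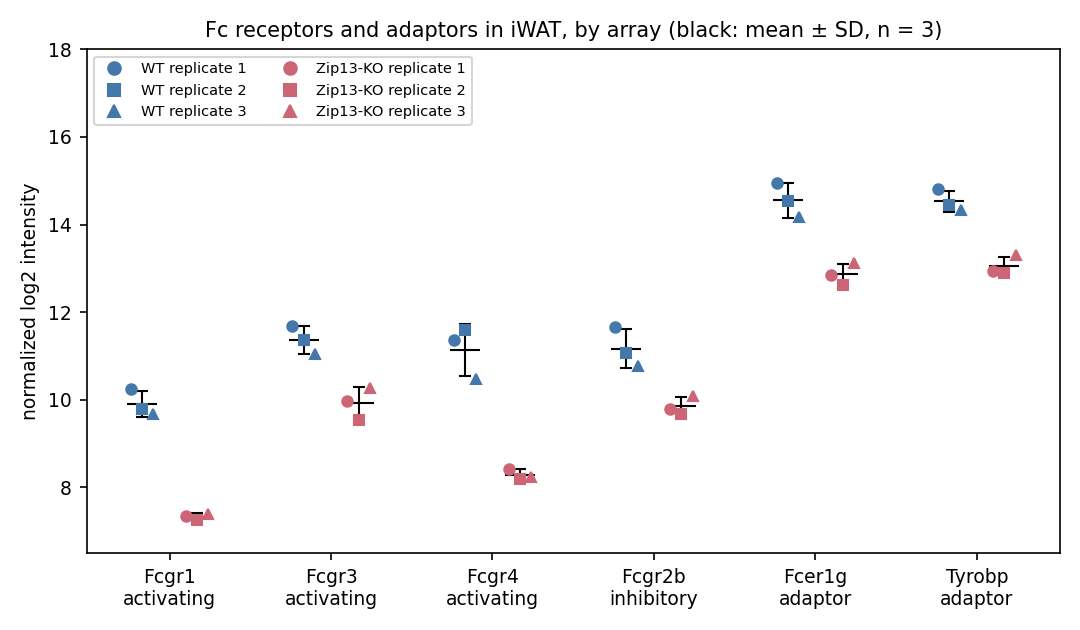
Normalized log2 intensity of the 6 genes (vertical axis) on each array, blue for WT and red for Zip13-KO, with a symbol for each replicate and black bars for the mean ± SD of 3 arrays. Every Zip13-KO array lies below every WT array in all 6 genes, and heights are not comparable between genes because each feature binds with its own efficiency.

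Fcgr4 had the largest fall of the 6. This receptor of monocytes, macrophages and neutrophils binds the IgG2 subclasses. Its feature (NM_144559) read 11.37, 11.59 and 10.47 in WT replicates 1, 2 and 3, and 8.43, 8.19 and 8.23 in the Zip13-KO replicates. The WT arrays spread over more than 1 log2 unit while the Zip13-KO arrays lay close together, and the lowest WT array was still 2.04 above the highest Zip13-KO array. The log2 fold change was -2.86 (standard error 0.29, 95% interval -3.56 to -2.16, limma adjusted p = 0.004591), 7.26-fold lower, which placed Fcgr4 at rank 29 among the 15306 genes ordered from the largest fall.

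Fcgr1, the high-affinity receptor, gave 10.25, 9.78 and 9.68 in WT and 7.36, 7.26 and 7.39 in Zip13-KO (NM_010186). Its Zip13-KO arrays varied least of all 6 genes, with an SD of 0.07 against 0.30 in WT. Fcgr1 fell by 2.57 on the log2 scale (standard error 0.16, limma adjusted p = 0.002916), to 16.9% of the WT intensity. The gap between the lowest WT and the highest Zip13-KO array, 2.29, was the widest of the 6 genes.

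The low-affinity activating receptor Fcgr3, which macrophages, neutrophils, mast cells and NK cells carry, moved less. It read 11.69, 11.37 and 11.04 in WT and 9.97, 9.55 and 10.27 in Zip13-KO (NM_010188), with a log2 fold change of -1.44 (standard error 0.23, limma adjusted p = 0.009351), 2.72-fold lower. The gap between the genotypes was 0.78, and its Zip13-KO arrays had the widest spread of the 6 genes, with an SD of 0.36.

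The inhibitory receptor Fcgr2b fell as well. Its feature (NM_001077189) is printed 10 times on each array, so its value is the mean of up to 10 spots, after 6 of the 60 readings were dropped as outliers, and the spots of an array had an SD of 0.04 to 0.06 log2 units. Fcgr2b read 11.67, 11.07 and 10.77 in WT and 9.79, 9.69 and 10.08 in Zip13-KO. The SD between arrays, 0.46 in WT and 0.20 in Zip13-KO, was several times that between spots. The log2 fold change was -1.32 (standard error 0.24, 95% interval -1.91 to -0.73, limma adjusted p = 0.01201), 2.49-fold lower and the smallest fall of the 6 genes.

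Both adaptors fell, by amounts between those of Fcgr3 and Fcgr1. Fcer1g, the gamma chain that the 3 activating receptors share, read 14.95, 14.54 and 14.16 in WT and 12.85, 12.63 and 13.12 in Zip13-KO (NM_010185). Its log2 fold change was -1.69 (standard error 0.22, limma adjusted p = 0.006589), 3.22-fold lower. Tyrobp read 14.81, 14.45 and 14.33 in WT and 12.95, 12.88 and 13.30 in Zip13-KO (NM_011662). For this DAP12 adaptor the log2 fold change was -1.48 (standard error 0.17, limma adjusted p = 0.005319), 2.79-fold lower. In both adaptors the lowest WT array stood more than 1 log2 unit above the highest Zip13-KO array, by 1.04 in Fcer1g and 1.03 in Tyrobp.

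**Figure D2:**
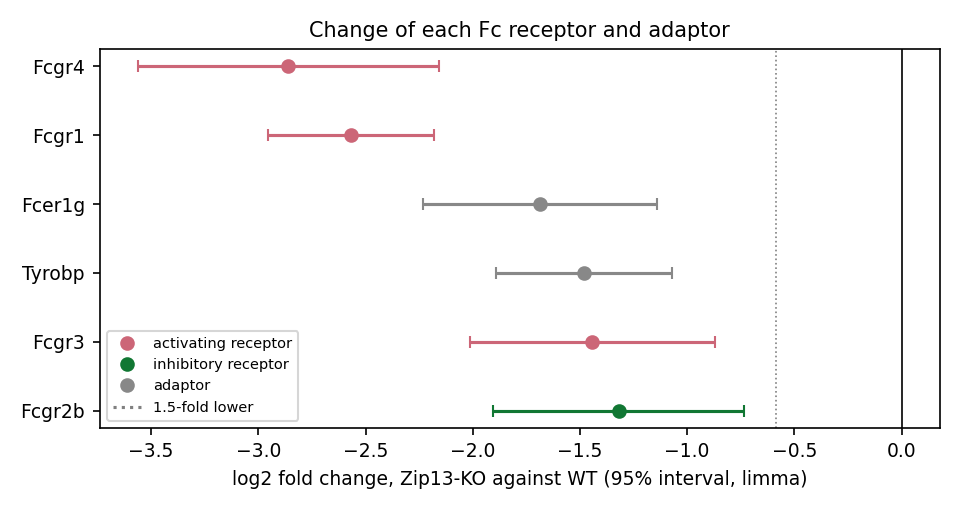
Log2 fold change of each gene, Zip13-KO against WT (horizontal axis), with its 95% interval from limma over 6 arrays, coloured by role. The intervals of Fcgr4 and Fcgr1 end at -2.16 and -2.18, those of all 6 genes lie below the dotted line at 1.5-fold lower, and Fcgr2b is closest to 0 at -1.32.

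With the slide column as a term in the fit, which rests on Zip13-KO replicate 1 against the WT arrays, the log2 fold changes kept their sizes, from -1.38 in Fcgr2b to -2.71 in Fcgr4, but none of the 6 genes passed, at adjusted p values of 0.05779 to 0.09096. Only 7 of 15306 genes passed in that fit.

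The activating receptors were set against the inhibitory one by taking each gene's log2 value minus that of Fcgr2b on the same array, with the WT mean at 0. Fcgr4 had lost more than Fcgr2b: its values were -0.27, 0.55 and -0.27 in WT and -1.33, -1.47 and -1.82 in Zip13-KO. The difference of -1.54 (95% interval -2.23 to -0.85, limma adjusted p = 4.343e-05) means a fall 2.91-fold deeper than that of Fcgr2b. Fcgr1 gave -0.15, -0.02 and 0.18 in WT and -1.17, -1.17 and -1.42 in Zip13-KO. This difference of -1.25 (95% interval -1.94 to -0.56, limma adjusted p = 0.0007066) is 2.38-fold. In these fits relative to Fcgr2b, limma gave all genes the same standard error and took it as known, which 6 arrays cannot establish. Adjustment over all genes also changed little, since the unadjusted limma p was 1.307e-05 in Fcgr4 and 0.0004067 in Fcgr1. The small adjusted p values thus overstate what 6 arrays can show. In both receptors the genotypes did not overlap (exact permutation test, two-sided p = 0.1). By limma, at an adjusted p under 0.05, 0.608% of all genes fell more than Fcgr2b.

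Fcgr3 did not differ detectably from Fcgr2b. Its values relative to Fcgr2b were -0.18, 0.10 and 0.07 in WT and -0.02, -0.34 and -0.01 in Zip13-KO, which overlap. The difference was -0.12, with a 95% interval from -0.82 to 0.57 (limma adjusted p = 0.7357; exact permutation test, two-sided p = 0.5), an interval that still holds a fall of Fcgr3 1.5-fold deeper than that of Fcgr2b. The change in Fcgr1 was 1.13 and that in Fcgr4 1.42 log2 units below the change in Fcgr3, without overlap between genotypes, while Fcgr1 and Fcgr4 differed by 0.29 and overlapped. These differences between the activating receptors carry no test.

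Neither adaptor differed from Fcgr2b by the same test. Fcer1g was lower relative to Fcgr2b by 0.37, with Zip13-KO arrays at -0.32, -0.44 and -0.34 below WT arrays at -0.10, 0.10 and 0.01 (limma adjusted p = 0.3113; exact permutation test, two-sided p = 0.1). Tyrobp differed by -0.16 and overlapped (limma adjusted p = 0.655). In these fits limma gave every gene 1 common standard error, 0.35, because all differences carry the spread of Fcgr2b, and that error is larger than the spread of Fcer1g relative to Fcgr2b (SD 0.10 in WT and 0.06 in Zip13-KO).

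**Figure D3:**
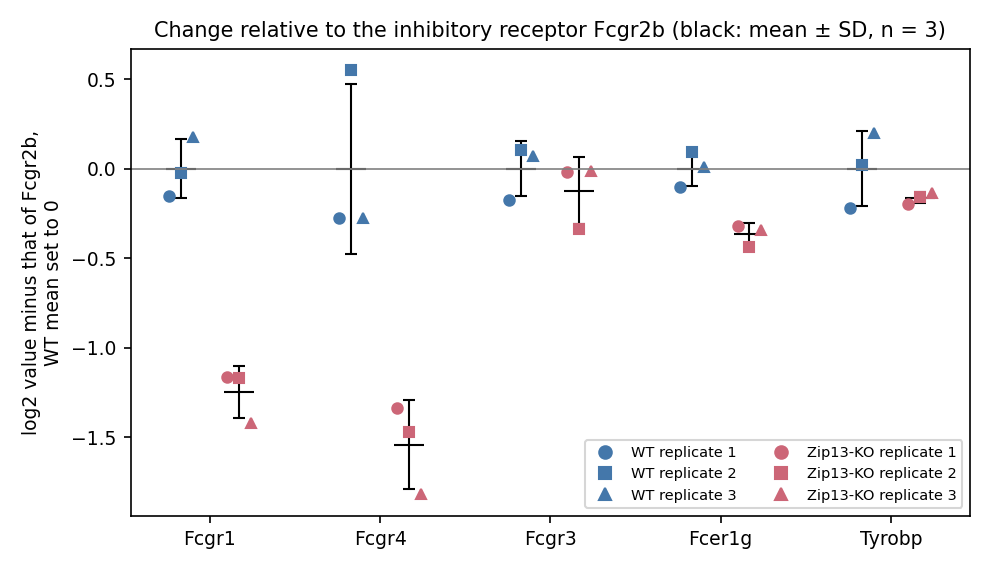
Log2 value of each gene minus that of Fcgr2b on the same array, with the WT mean at 0 (vertical axis), for 3 WT (blue) and 3 Zip13-KO (red) arrays, with black bars for the mean ± SD. Fcgr1 lies at -1.25 and Fcgr4 at -1.54 in Zip13-KO, Fcer1g at -0.37 without overlap, and Fcgr3 and Tyrobp overlap with WT.

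With the slide column as a term, the difference from Fcgr2b was -1.33 in Fcgr4 (adjusted p = 0.02932) and -1.17 in Fcgr1, which then just missed the threshold (adjusted p = 0.05168). The mouse Fcgr2b and Fcgr3 genes encode near-identical ectodomains. The place of each feature within its transcript was not used here, so the part of shared signal in the like changes of Fcgr2b and Fcgr3 was not tested.

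The stretches of 120 bases before the RefSeq start (GRCm38.p6) of the receptors and of Fcer1g are printed because the genes fell together but by unequal amounts. A window was at hand for 5 of the 6 genes, and the start farthest upstream was used for Fcgr3, which has 2. Capitals mark GAGGAA, the core bound by PU.1, the ETS factor of myeloid and B cells, TTCNNNGAA, the palindrome bound by STAT factors, and TTGCNNAA, a site type of C/EBP factors, each on either strand; GAGGAA on the opposite strand reads TTCCTC.
Fcgr1, chr3:96293970-96294089, minus strand: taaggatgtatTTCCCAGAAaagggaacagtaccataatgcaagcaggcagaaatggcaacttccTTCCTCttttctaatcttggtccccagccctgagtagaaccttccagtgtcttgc
Fcgr4, chr1:171018806-171018925, plus strand: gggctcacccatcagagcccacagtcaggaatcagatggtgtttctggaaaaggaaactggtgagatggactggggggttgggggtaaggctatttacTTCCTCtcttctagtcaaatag
Fcgr3, chr1:171059404-171059523, minus strand: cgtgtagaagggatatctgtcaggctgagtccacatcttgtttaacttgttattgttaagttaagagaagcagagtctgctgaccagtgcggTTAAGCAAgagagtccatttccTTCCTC
Fcgr2b, chr1:170976072-170976191, minus strand: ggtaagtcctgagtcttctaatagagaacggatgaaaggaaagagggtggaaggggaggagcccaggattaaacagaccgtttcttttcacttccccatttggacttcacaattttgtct
Fcer1g, chr1:171234350-171234469, minus strand: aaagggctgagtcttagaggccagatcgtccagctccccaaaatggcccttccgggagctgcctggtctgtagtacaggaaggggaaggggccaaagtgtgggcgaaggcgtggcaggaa

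GAGGAA stood in the window of all 3 activating receptors, with its first base 55 bases before the start in Fcgr1, 22 in Fcgr4 and 6 in Fcgr3. Over the 250 bases before the start, neither Fcgr2b nor Fcer1g held it, and 23.3% of 32851 RefSeq windows of that length did. TTCNNNGAA stood in Fcgr1 alone, 109 bases before the start, and in 7.0% of all windows. TTGCNNAA stood in Fcgr3 alone, 28 bases before the start, and in 9.6% of all windows. No motif overlapped another. The matches describe letters in these windows, and Fcgr3, whose change was like that of Fcgr2b, held GAGGAA as Fcgr1 and Fcgr4 did.

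Fcgr2b, Fcgr4, Fcgr3 and Fcer1g also lie near each other on chromosome 1, in that order in the RefSeq annotation. Among the 7 tested protein-coding genes between Fcgr3 and Fcer1g, none was lower in Zip13-KO. Sdhc, a subunit of succinate dehydrogenase, and Pcp4l1 passed the test in the other direction, at log2 fold changes of 0.82 and 0.72, and the other 5 lay between 0.03 and 0.65 without passing the threshold. The 4 Fc genes on either side of them were all lower. These neighbours were chosen after their values were seen.

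Macrophage markers fell with the Fc genes. Of 17 markers, all well above background on all 6 arrays, 13 were lower in Zip13-KO, none was higher, and the median log2 fold change was -1.20, against -0.0005 over all genes tested. The lysosomal glycoprotein gene Cd68 had a log2 fold change of -1.87, the macrophage surface marker Adgre1 of -1.64, and the complement genes C1qb and C1qa of -1.60 and -1.45, whereas Itgam (CD11b) had a log2 fold change of -0.17 that did not pass (limma adjusted p = 0.2335). Log2 of the markers' summed intensity was 16.97 to 17.65 in WT and 15.87 to 16.33 in Zip13-KO arrays. Without Zip13-KO replicate 1, 8 of the 17 passed. In RNA of whole tissue, fewer cells of a type and less RNA per cell cannot be told apart.

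Set against these markers, the genes again parted. The median of the 17 markers, each less its WT mean, came to 0.37, -0.05 and -0.23 for WT and to -1.18, -1.34 and -0.93 for Zip13-KO. After that median was taken off each array, Fcgr4 remained at -1.71 ± 0.24 (SD, n = 3) and Fcgr1 at -1.42 ± 0.15 (SD, n = 3) in Zip13-KO. Fcgr1 stood at -1.36, -1.30 and -1.58 in the Zip13-KO arrays, far below its WT arrays at -0.03, -0.08 and 0.01. Fcer1g was left at -0.53 ± 0.04, Tyrobp at -0.33 ± 0.06, Fcgr3 at -0.29 ± 0.16 and Fcgr2b at -0.17 ± 0.03 (SD, n = 3 each). Fcgr2b, the gene with the smallest fall, thus lay closest to the marker median. Its WT arrays, from -0.17 to 0.12, overlapped with its Zip13-KO arrays, from -0.20 to -0.14. These values carry no test, and the part of the macrophage markers in the fall of the Fc genes was not tested.

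**Figure D4:**
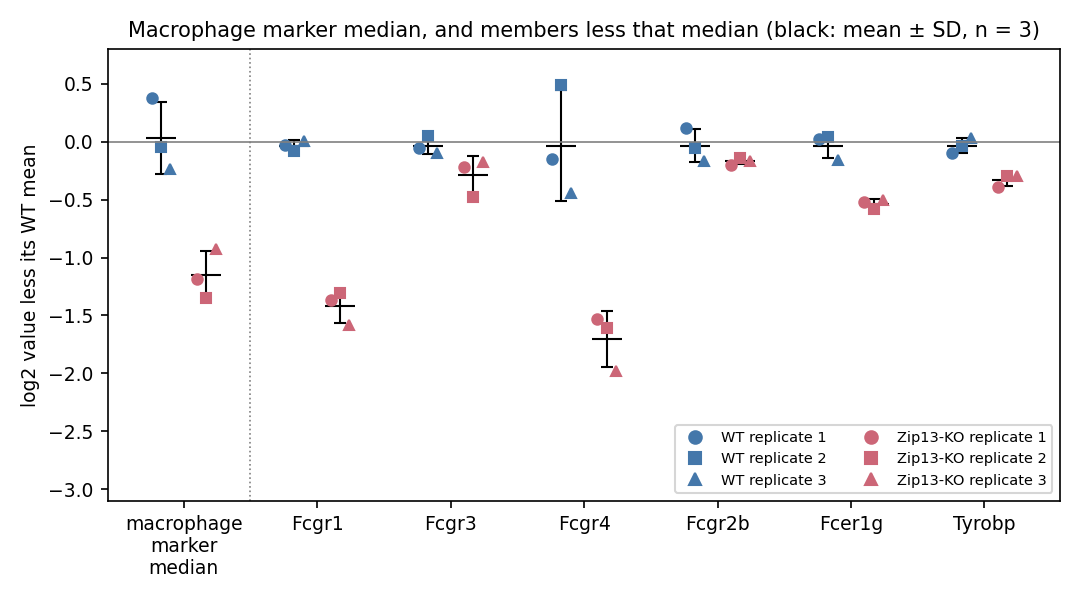
Left of the dotted line, the median of 17 macrophage markers on each array, each less its WT mean (log2, vertical axis); right of it, each Fc gene less its WT mean and less that median. Blue stands for WT, red for Zip13-KO, black bars for the mean ± SD of 3 arrays; Fcgr1 and Fcgr4 stay at -1.42 and -1.71 in Zip13-KO, and Fcgr2b at -0.17.

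Other blood cells carry parts of this receptor set, and their markers moved less evenly. Neutrophils bear Fcgr3 and Fcgr4: 4 of 10 tested markers were lower, among them the calprotectin genes S100a9 (log2 fold change -1.55) and S100a8 (-1.47), and 8 of the 10 were below 0, with a median log2 fold change of -1.16. Their summed log2 level was 16.27 to 16.31 in WT and 16.05 to 16.12 in Zip13-KO, a sum to which the bright feature of Csf3r, at 15.91 in both genotypes, contributed most. NK cells bear Fcgr3, Fcer1g and Tyrobp: 3 of 8 markers were lower, led by Gzmb (granzyme B) at -1.62, with a median of -0.56 and sums of 13.28 to 13.51 in WT and 12.55 to 12.76 in Zip13-KO. B cells bear Fcgr2b and none of the activating receptors: 1 of 7 markers, the transcription factor gene Pax5 (-0.61), was lower, and the sums were 14.45 to 14.92 in WT and 14.22 to 14.35 in Zip13-KO. The B cell marker median was -0.41, where Fcgr2b fell by 1.32. Of 7 dendritic cell markers 2 were lower, Clec10a (-1.14) and Itgax (-0.86), with a median of -0.52 and 6 of the 7 below 0. Their sums, 13.96 to 14.30 in WT and 12.95 to 13.34 in Zip13-KO, came mostly from the bright feature of Clec10a. Clec9a and Zbtb46, named after their values were seen, were at -0.21 and -0.01. Of 7 mast cell markers 1 was lower, with a median of -1.06 and sums of 12.91 to 14.49 against 12.36 to 12.84. Gata2 (0.55) and Kit (0.41), Kit named after its value was seen, went the other way and missed only the fold threshold (limma adjusted p = 0.02451 and 0.02793). None of 8 T cell markers passed (median -0.52, sums 15.12 to 15.62 against 14.55 to 14.95). These counts rest on single arrays: 1 neutrophil marker passed without Zip13-KO replicate 2 or without any 1 WT array, 1 dendritic cell marker without WT replicate 3 or any 1 Zip13-KO array, 5 mast cell markers without WT replicate 3, 1 mast cell marker was higher without WT replicate 1 or Zip13-KO replicate 1, 5 NK cell markers passed without WT replicate 1, 2 B cell markers without WT replicate 1 and 0 without Zip13-KO replicate 1 or 3, and 3 T cell markers without WT replicate 1 and 1 without Zip13-KO replicate 3. Processing moved some counts too: 0 B cell markers passed with another background correction (normexp) and with the authors' deposited values. With no filter on dim features 1 neutrophil and 1 dendritic cell marker passed. Of the neutrophil markers 5 passed with normexp, and 6 with no background correction and with the deposited values. The part of these cells in the results was not tested.

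Of the cells of the fat tissue itself, all 8 adipocyte markers were well above background on every array, and 3 of them were higher in Zip13-KO, with Pparg, the nuclear receptor of fat cell differentiation, at a log2 fold change of 1.13. Among endothelial markers 1 of 6 was higher (Cdh5, VE-cadherin, 0.77), among stromal markers 1 of 7 was lower (Pdgfra, -0.65), and none of 6 skeletal muscle or 4 tested mammary epithelium markers passed, except that 1 mammary epithelium marker was higher without WT replicate 1. The adipocyte sums were 18.49 to 18.93 in WT and 19.15 to 19.22 in Zip13-KO. Without 1 array, 0 to 5 adipocyte markers were higher and 0 to 5 stromal markers lower. Under 75th percentile normalization 5 adipocyte markers were higher and 0 stromal markers lower, and with no filter on dim features 1 and 0. With the authors' deposited values 2 stromal markers were lower.

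Receptors that signal through the same adaptors were lower too. Of 6 tested receptors that pair with the gamma chain, 4 were lower, and the median log2 fold change was -1.40. The C-type lectin receptor gene Clec4d read 11.69, 10.52 and 10.02 in WT and 6.23, 6.32 and 6.80 in Zip13-KO, at -4.29 the deepest fall of any gene on the lists (standard error 0.43, limma adjusted p = 0.004591). Its relatives followed, with Clec4e (Mincle) at -2.46 and Clec4n (Dectin-2) at -1.65. Pira2 was at -1.15, and Oscar, the osteoclast-associated receptor, at -0.01 (limma adjusted p = 0.9446).

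Of 11 tested receptor genes listed as pairing with or signalling through TYROBP, 7 were lower, with a median of -1.03. Trem2, the lipid-sensing receptor of macrophages in adipose tissue, read 12.86, 10.83 and 11.42 in WT and 7.64, 7.61 and 8.33 in Zip13-KO, a log2 fold change of -3.84 (standard error 0.53, limma adjusted p = 0.006884). Sirpb1a was at -2.38 and Cd300lb at -2.30. All 3 Zip13-KO arrays read Trem3 as not well above background, so its fall is given as at least 2.37-fold (limma adjusted p = 0.006552), a bound at which the list's median stays the same. Trem1, which amplifies inflammatory signals, had the highest value of the list, 0.21, and did not pass (limma adjusted p = 0.08733).

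Inhibitory receptors with ITIM motifs fell in 5 of 13 genes, and their median was -0.48. Lilrb4a read 13.60, 13.55 and 12.92 in WT and 10.93, 10.95 and 11.07 in Zip13-KO, a log2 fold change of -2.37 (standard error 0.19, limma adjusted p = 0.004076). Pirb, at -1.47, Pilra, at -1.37, and Sirpa, the receptor of the CD47 signal, at -1.27, were the next 3, and Siglece was highest at 0.22 without passing. Activating and inhibitory partners of the paired families did not part in 1 direction. Sirpb1a was at -2.38 beside Sirpa at -1.27, and Cd300lb at -2.30 beside Cd300lf at -0.25 and Cd300a at -0.24. In contrast, Pira2 was at -1.15 beside Pirb at -1.47, and Pilrb1 and Pilrb2 at -0.97 and -1.03 beside Pilra at -1.37. Pilrb1, Pilrb2, Cd300lf and Cd300a were chosen after their values were seen. The differences within these families were not tested, and their near-identical copies can share signal.

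Among the signalling genes behind the receptors, on the activating side 18 of 26 genes were lower and none was higher, with a median of -0.69. Fgr, a Src family kinase of myeloid cells, was at -1.29, the phosphoinositide 3-kinase subunit Pik3r5 at -1.22, and Syk, the kinase that binds the phosphorylated ITAM, at -0.99 (12.96, 12.70 and 12.96 in WT against 11.70, 11.95 and 12.01 in Zip13-KO). Sos1 was the highest at 0.37 and did not pass. On the inhibitory side 7 of 13 genes were lower and none was higher, with a median of -0.67, close to that of the activating side. The adaptor genes Dok2 and Dok1 were at -1.23 and -1.06, Inpp5d, which encodes the SHIP-1 phosphatase that Fcgr2b recruits, at -0.77, and Ubash3b at -0.76. Inppl1, which encodes the related SHIP-2, was at 0.42 and did not reach 1.5-fold.

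All 5 subunit genes of the phagocyte oxidase, the enzyme that makes superoxide once Fc receptors are engaged, were lower, from -0.80 in Ncf4 to -1.26 in Cybb, whose product gp91phox is the catalytic subunit. Other ITAM and transmembrane adaptors moved less, with 2 of 8 lower: Lat2 at -0.87 and Hcst (DAP10) at -0.63. Of 11 tested receptors for other antibody classes and functions, 9 had a log2 fold change below 0, with a median of -0.28, and in 7 all Zip13-KO values were below all WT values, as in 25.9% of all genes. Fcrla and Fcmr, the receptor for IgM, named after their values were seen, had log2 fold changes of -0.47 and -0.43 and missed only the fold threshold (limma adjusted p = 0.03485 in both). The 1 called gene was Fcer1a, the IgE-binding chain of mast cells and basophils, at -2.52 (standard error 0.70, limma adjusted p = 0.03703), with WT arrays at 9.67, 7.29 and 7.03 and Zip13-KO arrays at 5.24, 5.28 and 5.91. That call was lost without WT replicate 2, without any 1 of the Zip13-KO arrays, with no filter on dim features and with another background correction (normexp). Lat2 or Hcst lost its call without Zip13-KO replicate 1 and under 75th percentile normalization, where 1 of the 8 adaptors passed. The neonatal receptor gene Fcgrt, which recycles IgG in many cell types and was chosen after its value was seen, was at 0.07 (13.48, 13.23 and 13.04 in WT, 13.35, 13.13 and 13.47 in Zip13-KO; limma adjusted p = 0.745).

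**Figure D5:**
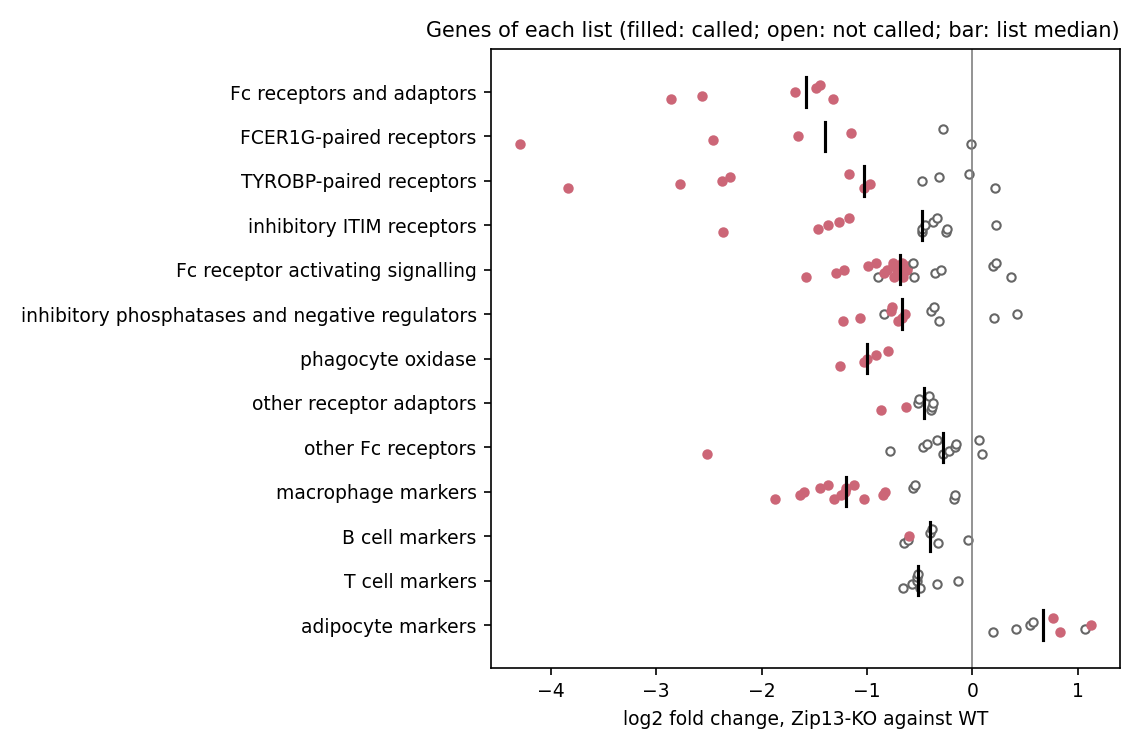
Log2 fold change, Zip13-KO against WT (horizontal axis), of each tested gene of 13 lists, filled where the gene passed the threshold and open where it did not, with a black bar at the list's median; heights within a list only separate the points. Medians run from -1.58 in the Fc receptors and adaptors and -1.40 in the gamma chain's partners to 0.67 in the adipocyte markers.

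Outside the 6 genes, the tested genes most like each by Pearson's r of log2 values over the 6 arrays all lay between 0.998 and 0.999. They describe a pattern that the difference between 2 genotypes dominates. Closest to Fcer1g were Clec4a1, P2ry6 and Fam102b, and closest to Tyrobp Ak8, Brip1 and Dcaf12. Fcgr1 was matched by Nt5c, Mefv and Slc9a3r1, Fcgr4 by Sfi1, Tubb6 and the monocyte chemokine receptor gene Ccr2, Fcgr3 by Sp100, Brms1 and 0610010K14Rik, and Fcgr2b by Rpl24, Tifa and Ada. These matched genes changed by -0.15 (Rpl24) to -1.89 (Clec4a1) on the log2 scale, so a like pattern across arrays did not mean a like size of change.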

How the data were processed

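RNA of 3 WT and 3 Zip13-KO iWAT samples was measured on 6 Agilent mouse arrays. The authors deposited the scanner's files (Feature Extraction 11.5.1.1), whose processed signal is an intensity already corrected for background, and a table of normalized log2 intensities. Log2 of the processed signal was taken, control and outlier spots were dropped, spots of a feature were averaged, and arrays were quantile normalized, which hides a shift common to all genes. A feature was kept if well above background on all 3 arrays of a genotype (33046 kept). Symbols came from RefSeq (GRCm38.p6) by transcript accession without version, for 20318 kept features, and the brightest feature stood for a gene. Genes were compared by the lmFit and eBayes functions of limma (version 3.58.1, R 4.3.3), Benjamini-Hochberg adjusted over 15306 genes, and called at an adjusted p under 0.05 and more than 1.5-fold. Differences from Fcgr2b were fitted the same way on values relative to Fcgr2b. The limma fit and the subtraction of a reference gene were tested on simulated log2 values. The steps before them were not.

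The 6 genes and all lists, motifs included, were chosen with earlier results of these data known. Named genes are the 6, Slc39a13 and Ucp1, in each list up to 4 called genes with the largest change and the highest and lowest gene, and for each of the 6 the 3 genes with the highest correlation. One gene that this rule names is not reported here. Alternatives were 75th percentile normalization, normexp (offset 50) or no background correction on the median signal (the files used here hold no mean signal), the deposited table, other filters and thresholds, the mean of a gene's features, an intensity trend with robust prior, a t-test alone, slide column, a replicate block and leaving out each array. The study itself combined a t-test with a median-ratio test. The number of arrays limits the precision. Replicate numbers of the labels were not treated as pairs.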

Additional observations from a re-analysis of the deposited data

How the results depend on the processing

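All 6 genes stayed lower in Zip13-KO, with none higher, under each normalization, background correction, filter, feature rule and prior tried, and without any 1 array (6 of 6 each time). Over every alternative the log2 fold change ran from -2.68 to -2.15 in Fcgr1, -1.52 to -1.07 in Fcgr2b, -1.61 to -1.25 in Fcgr3, -3.20 to -2.64 in Fcgr4, -1.88 to -1.49 in Fcer1g and -1.61 to -1.34 in Tyrobp. The exceptions to the calls were the slide column and, for Fcgr2b, an adjusted p under 0.01. With the slide column as a block 0 of the 6 genes passed, and within slide column 1, where 3 WT arrays meet Zip13-KO replicate 1 alone, 0 passed as well (adjusted p 0.1395 to 0.1587). Both fits rest on 1 Zip13-KO array, assumed to vary like the others, and 7 and 0 of all genes passed in them. The change in Fcgr1 relative to Fcgr2b was -1.17 in both (adjusted p = 0.05168 and 0.0877), and that in Fcgr4 -1.33 (adjusted p = 0.02932 and 0.05734). Otherwise Fcgr1 ran from -1.33 to -0.90 and Fcgr4 from -1.68 to -1.27 relative to Fcgr2b, and both passed each time. With the t-test alone Fcer1g fell more than Fcgr2b (-0.37). Beside the macrophage markers, Fcgr1 in Zip13-KO was at -1.03 to -1.16 under the other background corrections and with the deposited table, and Tyrobp at -0.26 under 75th percentile normalization.

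Same-numbered arrays of the genotypes did not deviate together (r = -0.02, 0.04 and -0.08). These few values show no sign that the numbers pair the samples, but cannot exclude it. With the replicate block 6 of the 6 genes were lower, at adjusted p values up to 0.04015, and 1271 genes were higher and 1038 lower, against 1565 and 1267 without the block. Over all genes the counts moved by more than 1.5 times at an adjusted p under 0.01 (704 higher, 500 lower), with no fold threshold (2951 and 2330), with the t-test alone after Benjamini-Hochberg adjustment (1002 and 709), and without Zip13-KO replicate 1 (953 and 772) or 2 (1017 and 783).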
